A study of Mus musculus with 5 samples.

Results

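The transcription factor genes Mixl1, Eomes, Gsc and Foxa2 were examined for β-catenin binding in mouse embryonic stem cells. Peaks were taken as theirs when the summit, the base of highest signal, lay in a window set around each gene in the mm9 build. The windows were chromosome 1 from 182.57 to 182.68 Mb for Mixl1 and chromosome 9 from 118.32 to 118.45 Mb for Eomes. They were chromosome 12 from 105.65 to 105.77 Mb for Gsc and chromosome 2 from 147.81 to 147.93 Mb for Foxa2. In all, 28 of the 44750 peaks of 3 lists met this rule. Of these, 11 came from the CHIR99021 anti-FLAG list (16069 peaks), 12 from the CHIR99021 streptavidin list (15947 peaks) and 5 from the DMSO list (12734 peaks).

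The cells were a knock-in line of V6.5 embryonic stem cells. Its Ctnnb1 gene, which encodes β-catenin, was tagged with a biotinylation site and 3xFLAG. They were kept in serum with LIF over feeder cells from DR4 mice, from which they were partly separated by plating. All groups carried this knock-in allele, and the protocol also names BirA, the enzyme that biotinylates the tag. The groups were cells given 3 µM CHIR99021, an inhibitor of the kinase GSK3, with capture by anti-FLAG or by streptavidin, and cells given the vehicle DMSO with capture by streptavidin. Each group was a single library, so none of the values has a replicate error and no test between groups was possible. The treatment lasted 16 hours per the labels' protocol and 24 hours per the series text, and at 1 point the protocol writes the dose as 3 mM. For DMSO the labels and the name of the aligned-read file give streptavidin or biotin, whereas the name of the run gives FLAG. The anti-FLAG library had 16100920 unique tags and the CHIR99021 streptavidin library 11934863. The DMSO depth was unknown. The MACS value d, its estimate of the distance between tags of opposite strands, was 185 and 214 bp for the CHIR99021 libraries and 30 bp for DMSO. DMSO tag counts are therefore given beside the others and not compared with them. Below, streptavidin without further words means the CHIR99021 list.

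β-Catenin is the effector of canonical Wnt signalling. It has no DNA-binding domain of its own and reaches chromatin mainly through TCF and LEF factors. GSK3 marks it for degradation, so a GSK3 inhibitor stabilises it. Wnt signals act together with Nodal in the primitive streak of the mouse embryo, where mesoderm and definitive endoderm arise. Mixl1 and Gsc encode homeodomain factors, Eomes a T-box factor and Foxa2 a forkhead factor, and each is known from that stage. RNA levels of these genes were not analysed here, so a peak says nothing about their expression.

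Promoters of 3 of the 4 genes were found in RefSeq's table for GRCm38.p6. They are shown, 5′ to 3′ on the gene's strand and up to the base before the start, because they are the annotated regulatory sequence nearest to each gene. For Foxa2, which has 3 listed starts, the furthest upstream is shown. The letters CTTTGAT, a TCF/LEF core, or their reverse complement ATCAAAG occurred in 0 of the 5 listed starts of these genes. They occurred in 3.21% of the table's 32851 sequences, cut to the same 250 bases. Capitals mark the shorter core CTTTG or CAAAG, a search added after the first, which was present in 48.6% of promoters. It was present in 4 of the 5 listed starts, and absent from 1 of the 3 Foxa2 starts. In the sequences shown, it occurred 2 times for Eomes and 1 time each for Gsc and Foxa2. The peaks are in mm9 and these sequences in GRCm38.p6, so whether a peak covers them was not determined.
Eomes (GRCm38.p6 chr9:118477939-118478188, plus strand): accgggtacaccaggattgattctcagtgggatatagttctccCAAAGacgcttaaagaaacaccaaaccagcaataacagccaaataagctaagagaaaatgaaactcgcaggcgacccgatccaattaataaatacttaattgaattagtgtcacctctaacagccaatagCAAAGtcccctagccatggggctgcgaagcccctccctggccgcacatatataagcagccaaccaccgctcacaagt
Gsc (GRCm38.p6 chr12:104473237-104473486, minus strand): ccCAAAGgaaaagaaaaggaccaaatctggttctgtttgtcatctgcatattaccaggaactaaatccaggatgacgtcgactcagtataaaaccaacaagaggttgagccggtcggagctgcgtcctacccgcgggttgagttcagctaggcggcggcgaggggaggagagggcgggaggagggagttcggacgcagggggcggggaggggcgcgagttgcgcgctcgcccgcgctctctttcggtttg
Foxa2 (GRCm38.p6 chr2:148046970-148047219, minus strand): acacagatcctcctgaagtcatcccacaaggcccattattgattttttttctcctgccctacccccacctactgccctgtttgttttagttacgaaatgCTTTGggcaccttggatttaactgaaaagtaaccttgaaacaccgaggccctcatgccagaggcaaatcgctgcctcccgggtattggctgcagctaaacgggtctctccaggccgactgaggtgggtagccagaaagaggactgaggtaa

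Under CHIR99021, β-catenin peaks were found in the windows of Eomes, Gsc and Foxa2 by both captures, and in the Mixl1 window by neither. The Eomes window had the most, with 7 anti-FLAG and 6 streptavidin peaks. The Gsc and Foxa2 windows each had 2 anti-FLAG and 3 streptavidin peaks. Every window also held a DMSO peak, 1 each at Eomes, Gsc and Foxa2 and 2 at Mixl1, all of 6 or 7 tags. The 3 windows with CHIR99021 peaks thus held peaks of all 3 lists, but at only 1 place, in the Foxa2 window, did a DMSO peak touch a CHIR99021 peak.

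To read these counts, all chromosomes were cut into 22012 tiles of 120 kb, the mean width of the 4 windows. The anti-FLAG list had a peak in 42.7% of tiles, the CHIR99021 streptavidin list in 42.7% and the DMSO list in 36.6%. Both CHIR99021 lists had a peak in 32.9% of tiles and all 3 lists in 17.5%. Presence of a peak at Gsc, Foxa2 and Eomes is therefore common to much of the genome, and a DMSO peak in all 4 windows stands against 36.6% of tiles, in a list of unknown depth. The number at Eomes was not: at least 7 anti-FLAG peaks occurred in 0.232% of tiles and at least 6 streptavidin peaks in 0.554%. The Eomes window is 130 kb wide, and in tiles of 130 kb these shares were 0.325% and 0.615%. At least 2 anti-FLAG peaks, as at Gsc and Foxa2, occurred in 17.8% of tiles, and at least 3 streptavidin peaks in 7.12%. The tiles include stretches where reads cannot be mapped and were not matched to genes.

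**Figure D1:**
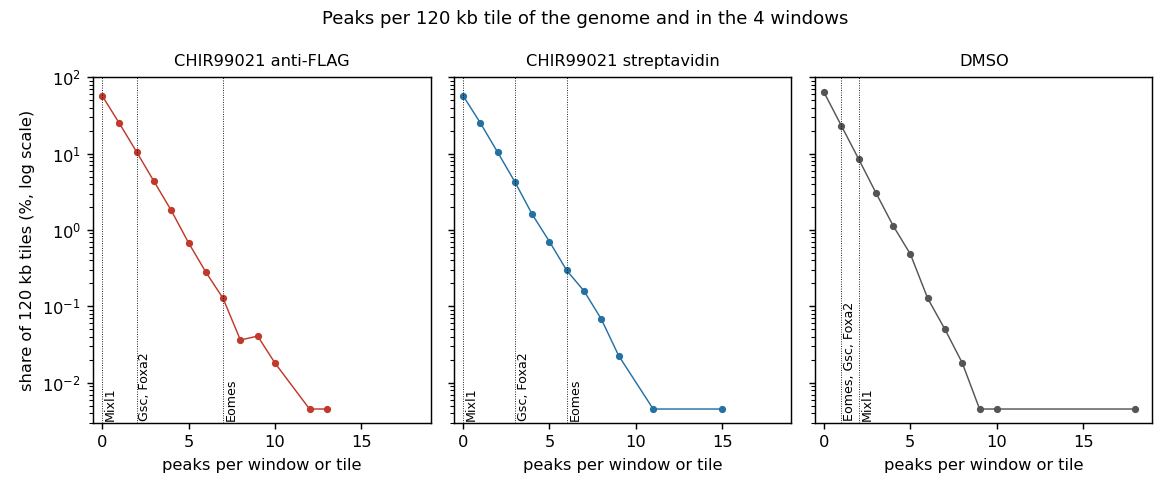
Share of 120 kb tiles of the genome (percent, log scale) against the number of peaks per tile, for each list, with dotted lines at the counts in the 4 windows. The Eomes window, with 7 and 6 peaks, lies far out in both CHIR99021 lists, and in the DMSO list all 4 windows hold 1 or 2 peaks.

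Where both captures called a peak, they placed it at nearly the same base. Both lists were called against the same input library, so their calls share that control. Of the 11 anti-FLAG peaks, 7 overlapped a streptavidin peak by at least 1 bp (57.6% over the whole list), and of the 12 streptavidin peaks, 7 overlapped an anti-FLAG peak (57.8% over the whole list). These formed 7 shared regions, 4 at Eomes, 2 at Foxa2 and 1 at Gsc. Their summits lay 2 to 101 bp apart, with a median of 37 bp, against a median of 43 bp over all 9358 overlapping pairs. The members' shares, 63.6% and 58.3%, were thus near those of the whole lists. Peaks found by both captures held 56 to 131 tags by anti-FLAG and 50 to 130 by streptavidin. The 4 peaks of anti-FLAG alone held 31 to 42 tags, fewer than any shared anti-FLAG peak. The 5 of streptavidin alone held 25 to 177 tags and so overlapped the shared range.

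**Figure D2:**
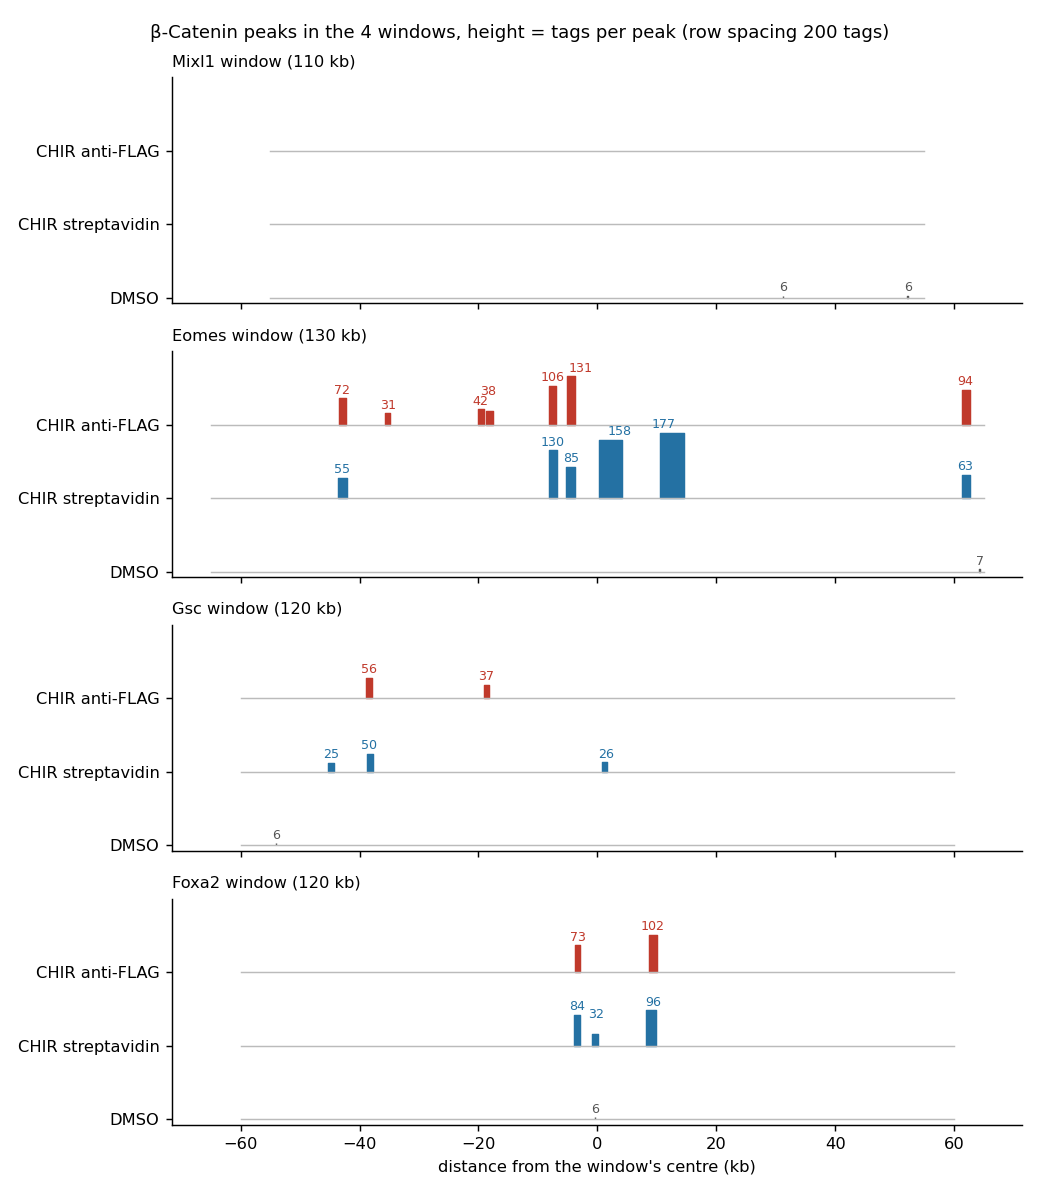
Peaks of the 3 lists in the 4 windows, by distance from the window's centre (kb). Bar width is the peak's length and bar height and the number above it its tags, with rows 200 tags apart. At 7 places, at Eomes, Gsc and Foxa2, the map shows both CHIR99021 captures, and the Mixl1 window holds only 2 DMSO peaks of 6 tags.

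The Eomes locus carried the densest group of peaks. Near the centre of the window, 2 shared regions lay side by side, with summits 3.14 kb apart by anti-FLAG and 3.18 kb by streptavidin. The first, chromosome 9 from 118376831 to 118378205, held 106 anti-FLAG tags and 130 streptavidin tags. Its fold enrichment over local background, as MACS gave it, was 14.04 by anti-FLAG and 17.94 by streptavidin. By p score, which is 10 times −log10 of the p-value, it ranked 2573 of 16069 by anti-FLAG and 1102 of 15947 by streptavidin. This rank was the best of the 12 streptavidin peaks in the 4 windows.

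The second of the pair, from 118379812 to 118381267, held 131 anti-FLAG tags, the most of the 11 anti-FLAG peaks, and 85 streptavidin tags. Fold enrichments were 13.97 and 11.52, in that order. Its summits, at 118380635 and 118380637, were 2 bp apart. Ranks were 2113 in the anti-FLAG list and 3877 in the streptavidin list. The captures thus ordered the pair differently by tags: anti-FLAG had more in the second region and streptavidin more in the first.

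A further 2 shared regions at Eomes lay towards the edges of the window. That from 118341412 to 118342900 held 72 anti-FLAG and 55 streptavidin tags, with fold enrichments of 8.67 and 6.64. That from 118446290 to 118447624 held 94 anti-FLAG and 63 streptavidin tags, with fold enrichments of 7.45 and 9.93. Its summits were 3.07 and 3.17 kb inside the window's end. Of the 4 shared Eomes regions, those at the edges had fewer tags than the central pair in each list.

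Anti-FLAG alone called 3 weaker Eomes peaks, from 118349283, 118364954 and 118366301, with 31, 42 and 38 tags. Their fold enrichments were 5.22, 5.66 and 5.10, all below the list's median of 8.13. The nearest streptavidin summits lay 7.75, 12.1 and 10.8 kb away, so these were not near misses of the overlap rule.

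Streptavidin alone called 2 broad Eomes peaks just beyond the central pair. They ran from 118385205 to 118389205 (4001 bp) and from 118395514 to 118399659 (4146 bp), against a list median of 926 bp. They held 158 and 177 tags, the most of the 12 streptavidin peaks in the windows, but fold enrichments of only 3.86 and 6.25. Their FDR was 0.91% and 0.12%. Per kb of peak they had 39.5 and 42.7 tags, below the 94.5 and 58.4 of the central pair in the same list. The shared Eomes peaks towards the edges, from 118341412 and 118446290, had 36.9 and 47.2 in that list, so the broad peaks lay between them. Just 30 streptavidin peaks (0.188% of the list) were 4000 bp or longer, a limit set after the lengths were seen. Of these 30, 3 (10%) had no anti-FLAG partner, and 2 of the 3 were these Eomes peaks. The third, starting at 24618181 on chromosome 1, held 7407 tags at 1.67-fold. At a limit of 3000 bp, 16 streptavidin peaks had no anti-FLAG partner, 2 of them at Eomes. By tags, 16 of 6731 streptavidin peaks without an anti-FLAG partner (0.238%) held at least 158. That limit is the smaller tag count of the 2 broad Eomes peaks, so both were bound to meet it. The nearest anti-FLAG summits were 8.12 and 15.4 kb away. The missing anti-FLAG calls give no limit on tags there, because only called peaks are listed.

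Foxa2 had fewer peaks, but both of its shared regions ranked high. The region from 147866078 to 147867138 on chromosome 2 held 73 anti-FLAG and 84 streptavidin tags. Its fold enrichments of 15.43 by anti-FLAG and 21.63 by streptavidin were the highest of all peaks in the windows in each CHIR99021 list. It ranked 1735 in the anti-FLAG list, the best rank of the 11 peaks, and 1240 in the streptavidin list. The region from 147878125 to 147880041 held 102 anti-FLAG and 96 streptavidin tags, with fold enrichments of 8.59 and 9.37. The summits of the 2 regions were 12.7 kb apart by anti-FLAG.

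Between them lay the place where a DMSO and a CHIR99021 peak coincided. The streptavidin peak from 147869084 to 147870110 held 32 tags at a fold enrichment of 6.40 and an FDR of 1.41%. The DMSO peak from 147869568 to 147869618 lay inside it and held 6 tags, the least in its list, with its summit 123 bp from the streptavidin summit. Anti-FLAG had no peak there, the nearest summit being 3.02 kb away. At the 4 loci, 0 of 11 anti-FLAG peaks (8.24% of the whole list) and 1 of 12 streptavidin peaks (8.38% of the whole list) overlapped a DMSO peak. Counted in DMSO peaks, 1 of 5 lay in a peak of either CHIR99021 list, and 15% did over the whole DMSO list. Of all streptavidin peaks without an anti-FLAG partner, 2.42% overlapped a DMSO peak.

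The Gsc peaks held the fewest tags in sum of the 3 loci with CHIR99021 peaks, 93 by anti-FLAG and 101 by streptavidin. Its shared region, chromosome 12 from 105671066 to 105672269, held 56 anti-FLAG and 50 streptavidin tags. The fold enrichments were 7.63 and 7.53, below both list medians, and the ranks 9123 of 16069 and 5622 of 15947. Anti-FLAG alone had a peak of 37 tags from 105690878 to 105691804. Streptavidin alone had peaks of 25 tags from 105664726 and of 26 tags from 105710829, with FDRs of 4.02% and 2.49%. The distances of these single-capture peaks to the nearest summit of the other capture were 19.8, 6.46 and 20.04 kb. No Gsc peak of any list reached a fold enrichment of 10 except the DMSO peak from 105655877 to 105655929, with 6 tags at 25.81-fold, where the DMSO list's median fold was also 25.81.

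At Mixl1 no CHIR99021 peak was called, as in 47.5% of tiles. The 2 DMSO peaks, from 182656179 to 182656267 and from 182677163 to 182677227, held 6 tags each with fold enrichments of 13.35 and 23.46. At least 2 DMSO peaks occurred in 13.4% of tiles, and a DMSO peak without any CHIR99021 peak in 10.7%. A count of 6 was shared by 71.3% of all DMSO peaks, and the FDRs were 3.35% and 3.65%. The nearest CHIR99021 call after it was a shared region outside the window, 19.04 kb beyond its end by anti-FLAG (74 tags, 4.05-fold) and 18.39 kb by streptavidin (52 tags, 4.81-fold). A window without a call is not shown to be free of β-catenin.

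The remaining DMSO peak, at Eomes from 118449267 to 118449337, held 7 tags. Its summit was 2.38 kb from the anti-FLAG summit and 2.49 kb from the streptavidin summit of the shared region at the window's end, and it did not overlap that region. Of the 5 DMSO peaks in the windows, 0 reached an FDR of at most 1% (0.11% of the whole DMSO list did). In that list too, the FDR did not always fall as the p score rose. The nearest DMSO peak before the Gsc window had an FDR of 17.45% at a p score of 111.4. The Mixl1 peak from 182656179 had 3.35% at a p score of 51.87.

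Most of the CHIR99021 peaks at these loci held more tags than the median peak of their list. By fold enrichment they lay on both sides of the list median. The median was 72 tags by anti-FLAG and 73.5 by streptavidin, against 39 and 34 over the whole lists. These peaks were also longer, with median lengths of 1132 and 1355 bp, against 859 and 926 bp. Their median fold enrichment was 7.63 and 7.08, against 8.13 and 8.56. By tags, 8 of 11 anti-FLAG and 9 of 12 streptavidin peaks exceeded the list median. By fold enrichment 5 of 11 and 5 of 12 did, near the share that a median sets by definition. An FDR of at most 1% was met by 8 of 11 anti-FLAG peaks (64.8% of the whole list) and by 9 of 12 streptavidin peaks (55.4% of the whole list). This limit does not simply select the stronger peaks, because the FDR did not always fall as the p score rose. The nearest anti-FLAG peak before the Foxa2 window had an FDR of 1.18% at a p score of 911. The anti-FLAG Eomes peak from 118364954 had 0.72% at a p score of 71.02. The top 20% of a list by p score held 5 of the 11 anti-FLAG peaks and 3 of the 12 streptavidin peaks. By definition the limit sets a share of 20%, and 3 of 12 is near it. All 8 of these peaks lay at Eomes or Foxa2. They were not 8 separate places, since each of the 3 streptavidin peaks shared its region with 1 of the 5 anti-FLAG peaks.

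**Figure D3:**
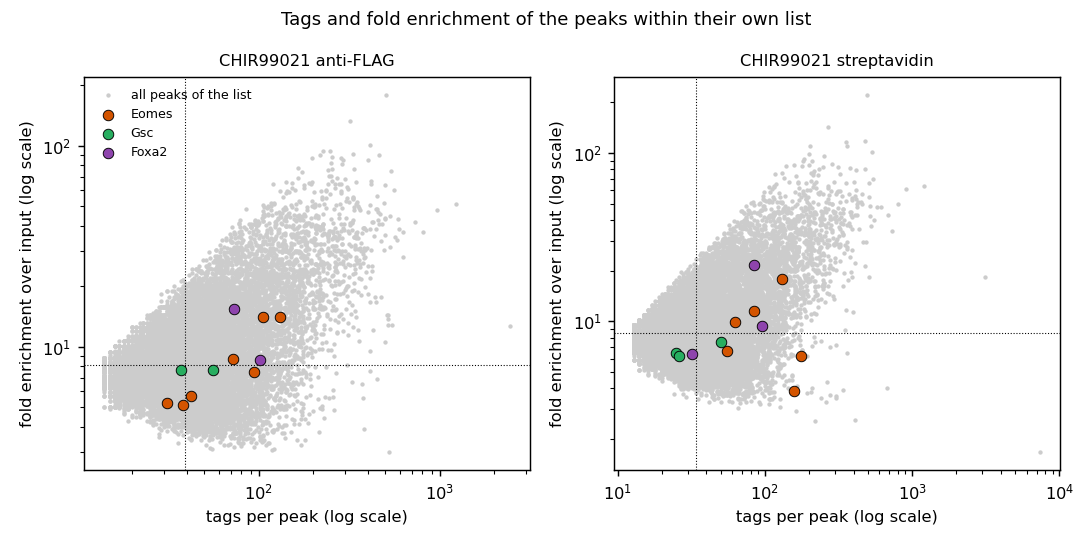
Fold enrichment over local background, labelled over input on the axis, against tags per peak, both on log scales. The peaks of Eomes, Gsc and Foxa2 (coloured) are shown among all peaks of the same list (grey), with dotted lines at the list medians. The 2 broad Eomes peaks of 158 and 177 tags sit at the lower edge of the streptavidin cloud. Among the coloured peaks of each list, the Foxa2 peaks of 15.43-fold and 21.63-fold stand highest.

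Scaled to unique tags, the peaks of the Eomes window held 31.9 anti-FLAG and 56.0 streptavidin tags per 1000000. The Foxa2 peaks held 10.9 and 17.8, and the Gsc peaks 5.78 and 8.46, in the same order. The loci thus ranked alike in both captures. Much of the Eomes sum by streptavidin came from the broad peaks: in shared regions alone the sum was 25.03 by anti-FLAG and 27.9 by streptavidin. Called peaks covered 7940 bp by anti-FLAG and 13802 bp by streptavidin at Eomes, and the mean was 64.7 and 48.4 raw tags per kb of peak.

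Region by region, the ratio of anti-FLAG to streptavidin tags, each scaled to unique tags, ranged from 0.604 to 1.14 over the 7 shared regions. Its median was 0.830, against 0.879 over all 9113 shared regions, where the middle 50% lay between 0.741 and 1.05. The 95% exact binomial intervals given here cover counting error only. The lowest ratio, 0.604 (0.463 to 0.787), was that of the first central Eomes region, and 9.71% of all shared regions had a lower one. Its neighbour had the highest, 1.14 (0.863 to 1.52). The Foxa2 region of highest fold enrichment had 0.644 (0.464 to 0.892), and these 2 low ratios were the only ones of the 7 whose interval left out 1. How many of all shared regions have an interval that leaves out 1 was not counted, so this is not shown to be unusual. The median of all shared regions, 0.879, lay outside the interval of the Eomes region and inside that of the Foxa2 region. The second Foxa2 region had 0.788 (0.590 to 1.05) and the Gsc region 0.830 (0.557 to 1.24). The peaks differ in length between captures, and per base of peak the order changed. The 4 Eomes ratios then became, by position, 1.19, 0.727, 1.18 and 1.13, the Gsc ratio 0.783 and the Foxa2 ratios 0.921 and 1.05. The lowest was still the first central Eomes region, and the highest was now the Eomes region from 118341412.

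**Figure D4:**
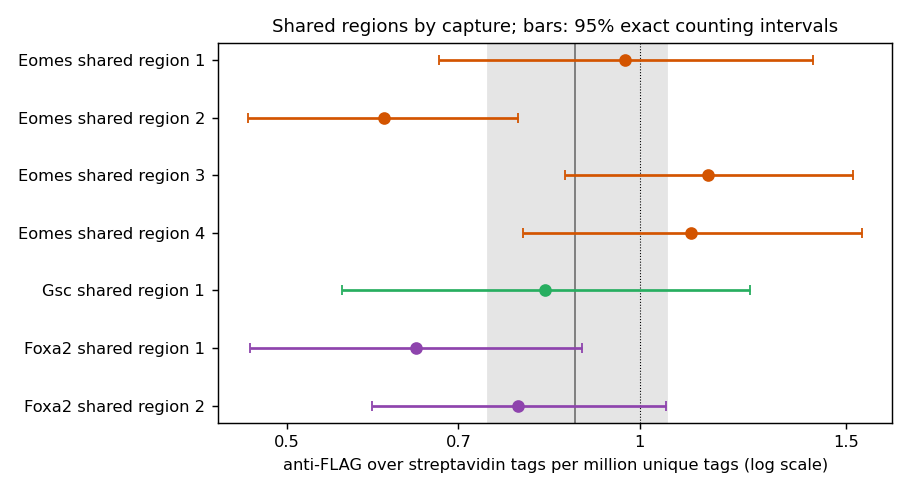
Ratio of anti-FLAG to streptavidin tags, each per 1000000 unique tags (log scale), for the 7 shared regions, numbered by position within each locus, with 95% exact counting intervals. The grey band and line are the middle 50% and the median of all shared regions. The second Eomes region at 0.604 and the first Foxa2 region at 0.644 lie left of the band.

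The nearest peaks outside the windows show what the edges cut off. At Eomes, the nearest before the start was an anti-FLAG peak at 4.50 kb with 73 tags, without a streptavidin partner. The nearest streptavidin peak before it lay at 20.8 kb with 199 tags and 26.73-fold, higher in fold enrichment than any peak inside, had an anti-FLAG partner, and shared its place with the nearest DMSO peak, of 9 tags. Beyond the Eomes end, an anti-FLAG peak followed at 280.7 kb with 48 tags, a streptavidin peak at 66.9 kb with 56 tags and a DMSO peak at 9.79 kb with 6 tags.

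Around Foxa2, a streptavidin peak of 27 tags at 5.49-fold lay 15.5 kb before the start, without an anti-FLAG partner. The nearest anti-FLAG peak there was at 78.4 kb, with 231 tags, 21.72-fold and a streptavidin partner. The nearest DMSO peak, of 9 tags, lay inside this anti-FLAG peak, 78.3 kb before the start. Past the Foxa2 end, an anti-FLAG peak of 18 tags at 7.95 kb had no streptavidin partner, and the next streptavidin and DMSO peaks, of 13 and 6 tags, lay at 594.6 and 235.7 kb.

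Around Gsc, the nearest peaks before the start were an anti-FLAG peak of 45 tags at 164.1 kb, a streptavidin peak of 17 tags at 30.4 kb and a DMSO peak of 9 tags at 15.5 kb. After the end they were an anti-FLAG peak of 21 tags at 6.84 kb, a streptavidin peak of 21 tags at 94.5 kb and a DMSO peak of 6 tags at 212.6 kb. Of these CHIR99021 peaks, the anti-FLAG peak at 164.1 kb was alone in having a partner in the other capture.

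Before the Mixl1 start lay an anti-FLAG peak of 62 tags at 68.9 kb, a streptavidin peak of 40 tags at 207.2 kb and a DMSO peak of 6 tags at 59.2 kb. The 2 CHIR99021 peaks were not shared. After the end, besides the shared region given above, the next DMSO peak, of 6 tags, lay at 69.6 kb.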

How the data were processed

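Peak tables of 3 ChIP libraries were used, and 2 input libraries entered only as the authors' controls. Per the file headers, the authors made each table with MACS from alignments in ELAND format, each ChIP library on its own against an input library. Both CHIR99021 libraries had the same input, of 17758366 unique tags. The p-value cutoff was 1.00e-05 and the band width 300 bp, also per the file headers. The sources used here do not give the version of MACS. Coordinates are in mm9, the build that the submitters' processing notes name. Per the file headers, each deposited peak has a raw tag count, a p score (10 times −log10 of the p-value, at least 50), a fold ratio over local background and an FDR in percent. Folds and scores are the authors' own, and their ranks and medians were taken within a list. In places, folds of different lists stand side by side or meet the same limit. The lists were not calibrated against each other. The deposited interval files of CHIR99021 repeated the MACS intervals, and that of DMSO, with 400 bp intervals, served in 1 alternative.

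Peaks were assigned by summit (start plus summit minus 1) and taken as shared at 1 bp or more in common. Peaks that touched or overlapped, whatever their list, made 1 region. Every peak in the windows is reported, with the nearest of each list outside each edge. Ratios of tags carry 95% exact (Clopper-Pearson) intervals, for counting error only. The members, lists and limits were chosen with earlier results of these data known. No mm9 annotation was used, so peaks were not placed relative to exons or starts, and a planned count over other mesendoderm and endoderm genes was not run. Overlap and region counts were tested on simulated data with known overlaps. For windows the simulation repeated the same rule, and for tiles it checked only that all summits were counted. Intervals came from scipy 1.17.1, tables from pandas 2.3.3 with numpy 2.4.6, and figures from matplotlib 3.10.9, all under Python 3.11.15.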

Additional observations from a re-analysis of the deposited data

How the results depend on the processing

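The 7 shared regions (4 at Eomes, 1 at Gsc, 2 at Foxa2) numbered the same with 50% reciprocal overlap and with summits within 200 bp. CHIR99021 regions with a DMSO peak numbered 1, at Foxa2, also with DMSO summits within 1000 bp and with the 400 bp DMSO intervals. Windows widened by 20 kb gave Mixl1 1 anti-FLAG and 1 streptavidin peak, and Eomes and Gsc 2 DMSO peaks each. Narrowed by 20 kb, they left 1 DMSO peak at Mixl1 and 0 at Eomes and Gsc. At an FDR of 1%, Gsc kept 1 anti-FLAG and 1 streptavidin peak. At a p score of 100, Eomes kept 4 anti-FLAG peaks and Gsc 0 anti-FLAG and 1 streptavidin peak. Each of these limits, and a minimum of 10 tags, left 0 DMSO peaks at all 4 loci. At a fold of 10, Eomes kept 2 and 2 peaks by anti-FLAG and streptavidin, Foxa2 1 and 1, and Gsc 0 and 0. An FDR of 5% and counting any base in the window moved no count by over 1.5 times. In shared regions alone, tags per 1000000 were 25.03 and 27.9 at Eomes and 3.48 and 4.19 at Gsc by anti-FLAG and streptavidin, and 15.1 at Foxa2 by streptavidin. Tiles of 130 kb, added after seeing the data, gave 44.6%, 44.8% and 38.7% of tiles with a peak for anti-FLAG, CHIR99021 streptavidin and DMSO, and 0.325% with at least 7 anti-FLAG peaks. A limit of 3000 bp, also added later, gave 16 broad streptavidin peaks without an anti-FLAG partner, 2 of them at Eomes. Per base of peak, also added later, the first Foxa2 ratio was 0.921. The moves under other windows, limits and tiles follow from their construction, since fewer or more peaks enter. The unknown DMSO depth limits every statement on places without a DMSO call. No paired analysis was possible because there was 1 library in each group.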
